A study of Mus musculus with 15 samples.

Results

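Major histocompatibility complex (MHC) class II genes and their transactivator Ciita were followed across MLL-ENL–transformed mouse fetal liver cells with and without C/EBPα and C/EBPβ. The set holds 7 genes, chosen by symbol, of 53379 genes in the deposited table of normalized read counts, 24520 of which had a read in the libraries used here. They are the transactivator gene Ciita, the classical chain genes H2-Aa, H2-Ab1 and H2-Eb1, the invariant chain gene Cd74, and the peptide editor genes H2-DMa and H2-DMb1.

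RNA-seq libraries came from 5 groups of 3. All cells carried the MLL-ENL fusion oncogene and grew in 10 ng/ml IL-3. The C1 WT and C2 WT groups are transformed clones in which the floxed Cebpa and Cebpb alleles were left intact. The C1 dKO and C2 dKO groups lack both genes after treatment with a cell-permeable Cre protein and carry a GFP virus, which the WT labels do not list. The C1 LAP* group is C1 dKO with a virus that carries GFP and LAP*, which is the full-length form of rat C/EBPβ. Each dKO line is a clone from the rare cells that survived deletion, and it is tied to the WT line of its number by the labels and not shown to descend from that line, so 1 group is 1 line, and the clone and the genotype of a line cannot be told apart from any other change acquired during its outgrowth. The 3 libraries of a group are RNA isolations from 1 line at different times, so the p-values measure the spread between isolations and not between clones. The mouse strain is not given in the sources used here, and H2 genes are polymorphic between strains, which can alter how many reads align to them.

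Reads assigned to genes ranged from 9212237 to 13613500 per library. Cebpa and Cebpb were at 0 normalized reads in all 6 dKO libraries and between 902.8 and 2267 in the WT libraries. In the LAP* libraries Cebpa was at 0 to 0.920, and Cebpb was listed at 2538, 2564 and 4216. The myeloid progenitor genes Itgam, Fcgr3, Kit, Hoxa9, Meis1, Mpo and Elane, 7 of 7, were read above 3 reads in every group.

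Class II molecules are pairs of an α and a β chain that display peptides from the endosomal pathway to CD4 T cells. The invariant chain, encoded by Cd74, occupies the groove of a newly made pair, and the H2-DM heterodimer exchanges the remnant of the invariant chain for peptide. CIITA does not bind DNA itself. It is recruited to the X and Y boxes of class II promoters, where RFX, CREB and NF-Y sit, and it is the limiting factor for transcription of the family in dendritic cells, B cells and activated macrophages. Interferon γ induces Ciita in many other cells.

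Promoter sequences are shown first so that letter matches to the X and Y boxes can be set beside the genes whose levels follow. RefSeq windows of GRCm38.p6, running from 250 bases before to 50 bases after a start, were at hand for 4 of the 7 genes (H2-Aa, H2-Eb1, H2-DMa and H2-DMb1), with none for H2-Ab1, Ciita or Cd74. The letters searched on both strands were AACNGATG for an X-box-like match and TGATTGG for a Y-box (NF-Y) match, which contains the shorter ATTGG. Capitals mark these matches in the sequences below, which are printed 5′ to 3′ on the strand of the gene. They lie at chr17:34287837-34287933 on the minus strand for H2-Aa, chr17:34305748-34305842 on the plus strand for H2-Eb1 and chr17:34153069-34153164 on the plus strand for H2-DMb1.
H2-Aa: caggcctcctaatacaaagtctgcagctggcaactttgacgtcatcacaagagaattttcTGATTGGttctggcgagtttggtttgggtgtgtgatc
H2-Eb1: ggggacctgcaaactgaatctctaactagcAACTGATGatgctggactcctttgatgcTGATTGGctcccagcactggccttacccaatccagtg
H2-DMb1: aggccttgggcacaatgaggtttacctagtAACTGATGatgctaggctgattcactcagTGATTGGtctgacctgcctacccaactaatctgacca

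H2-Eb1 and H2-DMb1 held both matches, with 20 and 21 bases between them. The first base of TGATTGG lay 61 bases before the RefSeq start of H2-Eb1, 63 before that of H2-DMb1 and 50 before that of H2-Aa. RefSeq starts can differ from the GENCODE gene spans given with the values below: the H2-DMb1 stretch lies almost wholly inside its GENCODE span, and neither H2-DMa window covers the GENCODE start of that gene. AACNGATG was not found in the H2-Aa window, nor was either match in the 2 windows of H2-DMa. Of all 32851 windows in the table, 2.32% held AACNGATG, 7.82% held TGATTGG, 37.4% held ATTGG and 0.186% held both AACNGATG and TGATTGG. A C/EBP-like match, TTGCNNAA, was in 10.8% of all windows and in none of the 5 windows of these 4 genes. The matches describe letters in a window and not occupancy by a factor.

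The first comparison asked how the class II genes differed when C/EBPα and C/EBPβ were lost in clone C1. Ciita, H2-Aa, H2-Ab1 and H2-Eb1 went from no read in any C1 WT library to between 22.7 and 215.3 normalized reads in every C1 dKO library, and Cd74 rose by 12.1-fold. H2-DMa rose by 2.49-fold and H2-DMb1 by 1.40-fold. All 7 were called higher (adjusted p under 0.05, limma with Benjamini-Hochberg adjustment over 12673 genes), against 17.1% of all genes tested. None was called lower, a direction called for 19.9% of all genes, and none was lower at an unadjusted p under 0.05 or by edgeR or DESeq2. The 4 genes at 0 in C1 WT passed the filter on low values only through the C1 dKO and LAP* libraries and so had to differ between some groups, which makes their share of this count no support. The other 3, Cd74, H2-DMa and H2-DMb1, were read in C1 WT as well. In RNA from a whole culture, more cells that carry a transcript and more of it per cell cannot be told apart.

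**Figure D1:**
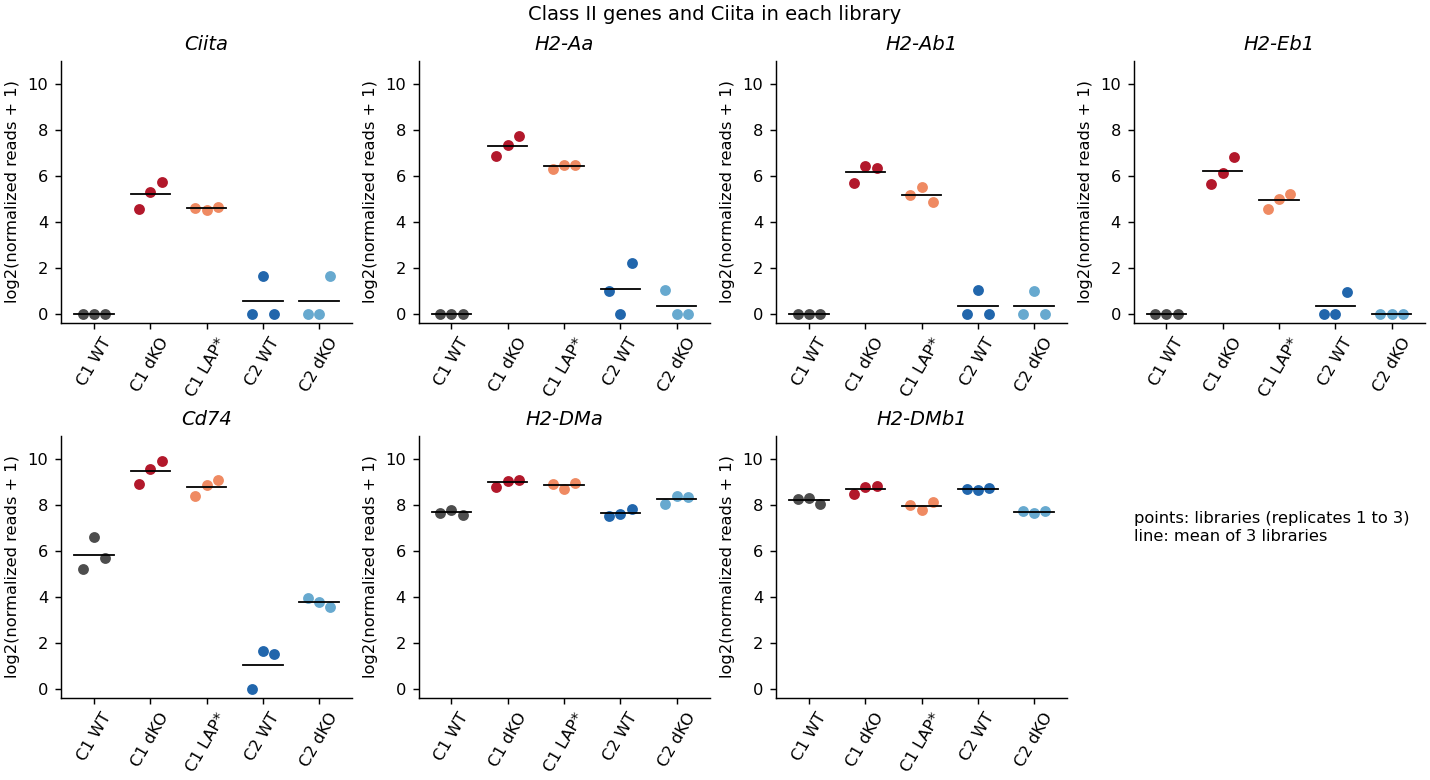
Normalized reads of the 7 genes in each of the 15 libraries, as log2(normalized reads + 1) on the vertical axis, by group on the horizontal axis, with each library as a point and the mean of 3 as a line. Ciita, H2-Aa, H2-Ab1 and H2-Eb1 lie at 0 in the 3 C1 WT libraries and at or near 0 in all 6 C2 libraries, whereas H2-DMa and H2-DMb1 lie above 180 normalized reads in all 15.

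Ciita encodes the transactivator and lies on chromosome 16 (mm10, 10480059 to 10528418, plus strand). It was at 0 in each C1 WT library and at 22.7, 38.8 and 52.1 normalized reads in C1 dKO replicates 1, 2 and 3. The groups did not overlap. The mean of 37.8 ± 14.7 (SD, n = 3) was at least 9.43-fold higher than the level that 3 reads per library would give in the shallowest C1 WT library, the floor for bounds against C1 WT, and the fitted log2 fold change was 5.20 ± 0.52 (SE, adjusted p = 1.2e-06, limma). The annotation places Dexi across part of Ciita on the other strand. Dexi, a gene of little-known function, had means of 47.7 in C1 WT and 68.3 in C1 dKO (adjusted p = 0.069, limma).

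H2-Aa encodes the α chain of the I-A molecule and H2-Ab1 its β chain. H2-Aa (chromosome 17, 34282744 to 34287823, minus strand) stood at 0 in each C1 WT library and at 115.5, 159.4 and 215.3 normalized reads in C1 dKO, a mean at least 40.7-fold above the floor. H2-Ab1 (34257689 to 34269419, plus strand) was likewise at 0 in C1 WT and at 51.0, 85.0 and 80.3 in C1 dKO, at least 18.0-fold above the floor. Neither gene's groups overlapped. Their fitted log2 fold changes were 7.32 ± 0.47 for H2-Aa (adjusted p = 7.4e-09, limma) and 6.16 ± 0.40 for H2-Ab1 (adjusted p = 9.1e-09, limma).

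H2-Eb1 (chromosome 17, 34305867 to 34316674, plus strand) encodes the β chain of the I-E molecule. It was at 0 in C1 WT and at 49.8, 68.2 and 112.1 normalized reads in C1 dKO, at least 19.1-fold above the floor (log2 fold change 6.20 ± 0.38, adjusted p = 5.1e-09, limma). An α chain for I-E was not read: H2-Ea-ps, the H2-Ea gene as annotated in this reference, was at 0 in all 15 libraries. Mouse strains differ in whether this gene is intact, and the strain of these cells was not available to compare. Gm20513 overlaps H2-Eb1 on the other strand.

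Cd74 (chromosome 18, 60803848 to 60812652, plus strand) differed from the chain genes in that it was already read in C1 WT, at 36.1, 96.5 and 51.0 normalized reads. It reached 480.2, 769.9 and 968.2 in C1 dKO, with no overlap (log2 fold change 3.63 ± 0.41, adjusted p = 4.6e-06, limma). In C1 WT the invariant chain was therefore read while Ciita and the chains that it escorts were not.

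The H2-DM genes had the highest levels in C1 WT and the smallest changes. H2-DMa (chromosome 17, 34119541 to 34139101, plus strand) was at 203.4, 221.9 and 188.5 normalized reads in C1 WT and at 440.6, 536.0 and 550.7 in C1 dKO (log2 fold change 1.31 ± 0.12, adjusted p = 7.2e-07, limma). H2-DMb1 (34153072 to 34160230, plus strand) was at 309.1, 320.2 and 263.9 in C1 WT and at 354.5, 444.7 and 450.1 in C1 dKO (log2 fold change 0.48 ± 0.12, adjusted p = 0.0040, limma). Neither pair of groups overlapped, although the lowest C1 dKO library was close to the highest C1 WT library for H2-DMb1. H2-DMb1 has a near-identical neighbour, H2-DMb2, so the split of reads between them is uncertain, and H2-DMa overlaps several annotated transcripts, among them Brd2 on the other strand. The strand setting of the counting is not given in the sources used here.

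C1 dKO replicate 1 was the lowest of the 3 C1 dKO libraries for 7 of 7 genes, and replicate 3 was the highest for 6 of 7. The same libraries were lowest and highest for Flt3, Itgax and Ctss, genes outside the set that are described below, and no library was lowest for all 7 genes in the other groups. With any 1 library of C1 WT or C1 dKO left out, 7 of 7 genes were still called higher.

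Across the table, 68 genes had no read in the 3 C1 WT libraries and more than 3 reads in each C1 dKO library, of which 46 averaged at least 10 normalized reads in C1 dKO. The 4 genes Ciita, H2-Aa, H2-Ab1 and H2-Eb1 were among them. Of the 68, 38 were also above 3 reads in each C1 LAP* library, and 32 had at most 4 reads in every C2 library.

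Clone C2 addressed whether the same genes moved when both C/EBP genes were lost in an independently transformed clone. Ciita, H2-Aa, H2-Ab1 and H2-Eb1 stayed at the level of a few reads in both C2 groups. Cd74 and H2-DMa were called higher in C2 dKO than in C2 WT, 2 of 7 genes against 17.4% of all genes, and H2-DMb1 was called lower, 1 of 7 against 20.1% (adjusted p under 0.05, limma).

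Ciita had 0, 2.10 and 0 normalized reads in C2 WT and 0, 0 and 2.15 in C2 dKO. H2-Aa had 1.00, 0 and 3.66 in C2 WT and 1.05, 0 and 0 in C2 dKO, which is 5 reads against 1 in all. H2-Ab1 and H2-Eb1 had at most 1 read in any C2 library. No fold change is read as a result for these 4 genes in C2, where a difference was not detectable at this depth. H2-Aa passed the test when C2 WT replicate 2, a library at 0, was left out (adjusted p = 0.038, limma), still on 5 reads against 1.

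Cd74 was at 0, 2.10 and 1.83 normalized reads in C2 WT and at 14.7, 12.6 and 10.7 in C2 dKO, without overlap (log2 fold change 2.72 ± 0.41, adjusted p = 9.1e-05, limma). From 37 reads against 4, the ratio was 9.67, with an exact 95% counting interval of 3.47 to 37.4. The C2 dKO mean of 12.7 ± 1.96 (SD, n = 3) was below each C1 WT library. Cd74 therefore differed in the same direction in both clones, from starting levels that were themselves far apart.

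H2-DMa was at 184.2, 197.1 and 227.2 in C2 WT and at 262.6, 330.5 and 325.0 in C2 dKO, a ratio of 1.51 (log2 fold change 0.59 ± 0.12, adjusted p = 0.0015, limma). H2-DMb1 was at 417.3, 396.3 and 421.4 in C2 WT and at 213.4, 203.2 and 210.2 in C2 dKO, a decrease of 1.97-fold (log2 fold change -0.97 ± 0.12, adjusted p = 7.9e-06, limma). Both pairs of groups were separate. The products of these genes form 1 heterodimer, yet their transcripts moved in opposite directions in C2.

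**Figure D2:**
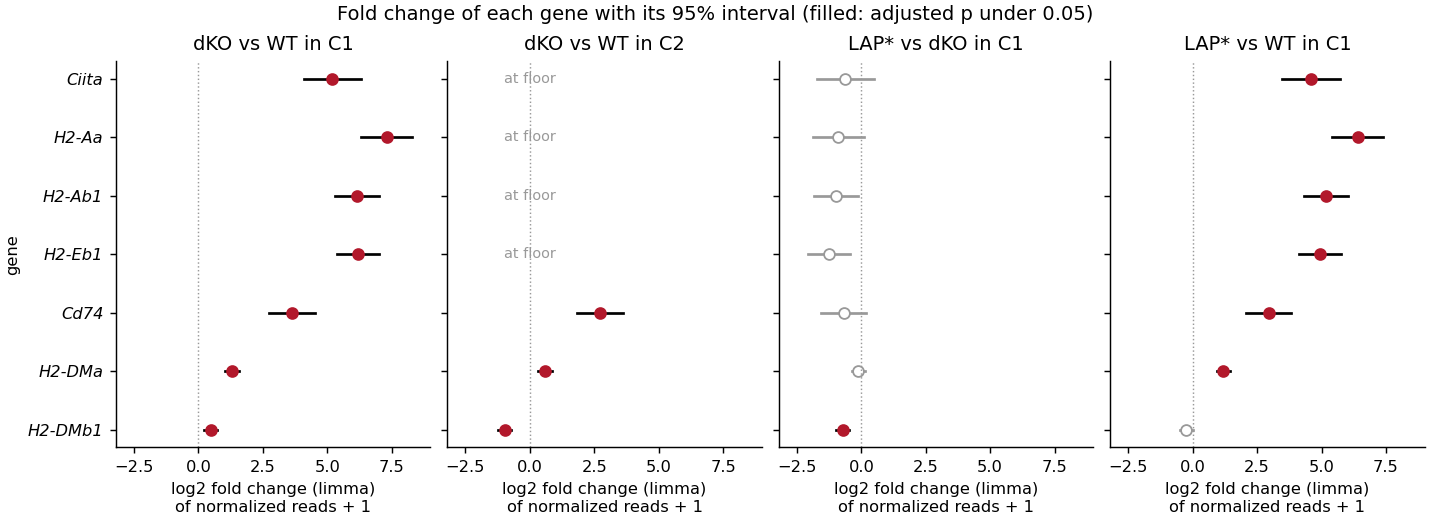
Log2 fold change of normalized reads + 1 (horizontal axis, limma) for each of the 7 genes (vertical axis) in 4 comparisons, with its 95% interval as a line; filled points have an adjusted p under 0.05, and "at floor" stands in place of a point for genes with at most 3 reads per library on average in both groups. Of the 3 genes drawn for both clones, H2-DMb1 changes side, at 0.48 in C1 and -0.97 in C2 for dKO against WT.

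The difference between the dKO effects of the clones was tested by itself, as an interaction. It was negative, meaning a smaller rise or a fall in C2, and called for 6 of 7 genes, against 14.3% of all genes called lower in this test. The same 4 genes are tested only because of their C1 dKO and LAP* levels, which leaves H2-DMa and H2-DMb1 as called genes whose testing did not depend on them. The difference was -8.04 ± 0.66 on the log2 scale for H2-Aa (adjusted p = 3.9e-07, limma), -5.20 ± 0.74 for Ciita (adjusted p = 7.9e-05, limma) and -1.45 ± 0.16 for H2-DMb1 (adjusted p = 9.6e-06, limma). For H2-DMa it was -0.72 ± 0.18 (adjusted p = 0.0060, limma). Cd74 did not pass, at -0.91 with a 95% interval of -2.16 to 0.33 (adjusted p = 0.27, limma), and its sign depended on the pseudocount: it was 0.42 with a pseudocount of 0.1 and -2.04 with 5, where it passed. C2 WT held only 4 Cd74 reads. Without C2 WT replicate 1 the Cd74 difference also passed, at -1.44 (adjusted p = 0.039, limma).

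The clones were also set side by side within a genotype. Among WT lines, Cd74 was called lower in C2 than in C1, 1 of 7 genes against 21.3% of all genes, and H2-DMb1 was called higher, 1 of 7 against 19.7%. The Cd74 ratio of C1 WT to C2 WT was 49.4 with an exact 95% counting interval of 19.0 to 183.4 (log2 fold change of C2 against C1 -4.80 ± 0.41, adjusted p = 1.5e-07, limma). H2-DMa did not differ detectably, with means of 204.6 ± 16.7 and 202.9 ± 22.1 (SD, n = 3 each, adjusted p = 0.94, limma).

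Among dKO lines, 7 of 7 genes were called lower in C2 than in C1, against 24.9% of all genes. For Ciita, H2-Aa, H2-Ab1 and H2-Eb1 this count is no support, since they passed the filter only through the lines where they are high, C1 dKO and LAP*. H2-Aa had 498 reads in C1 dKO and 1 in C2 dKO, and Ciita had 116 against 2. The ratio was 489 for H2-Aa with an exact 95% counting interval of 87.4 to 19361, and 57.0 for Ciita with an interval of 15.4 to 476. H2-Eb1 was at 0 in C2 dKO, so that its C1 dKO mean was at least 23.8-fold above the level of 3 reads in the shallowest C2 dKO library. Intervals and floors cover counting error only. These comparisons share the groups of those above and are not independent of them.

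Re-expression of rat LAP* in the C1 dKO line asked which of the differences were altered by a C/EBPβ isoform. All of the class II genes other than H2-DMb1 were above C1 WT in every LAP* library. Relative to C1 dKO, the mean of each of the 7 genes was lower, but only H2-DMb1 was called, 1 of 7 against 3.03% of all genes called lower (adjusted p under 0.05, limma). In 4 of the 7 genes (H2-Aa, H2-Ab1, H2-Eb1 and H2-DMb1) the LAP* and dKO libraries did not overlap, a pattern seen for 13.7% of all genes tested.

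H2-DMb1 was at 255.0, 218.5 and 278.1 normalized reads in the LAP* libraries, 1.66-fold below C1 dKO (log2 fold change -0.73 ± 0.12, adjusted p = 0.0018, limma). Its LAP* mean of 250.5 ± 30.1 and its C1 WT mean of 297.7 ± 29.8 (SD, n = 3 each) gave a log2 difference of -0.25 that did not pass the test (adjusted p = 0.11, limma, 95% interval -0.50 to -0.0046). Without C1 WT replicate 3 it passed, at -0.33 (adjusted p = 0.048, limma). H2-DMb1 was the 1 gene of the 7 whose LAP* libraries lay in the range of, or below, C1 WT. Its neighbour H2-DMb2, with which the split of reads is uncertain, did not follow it. In LAP*, H2-DMb2 was not called against C1 dKO (log2 fold change -0.17 ± 0.34, adjusted p = 0.85, limma). It was still called higher than C1 WT (log2 fold change 1.46 ± 0.34, adjusted p = 0.0032, limma). Whether the split of reads had a part in the H2-DMb1 decrease was not tested.

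H2-Eb1 was at 22.4, 31.3 and 36.5 in the LAP* libraries, 2.55-fold below C1 dKO (log2 fold change -1.27 ± 0.38, adjusted p = 0.076, limma). H2-Ab1 was at 34.5, 44.3 and 28.3 (log2 fold change -0.98 ± 0.40, adjusted p = 0.20, limma). H2-Aa was at 78.2, 86.7 and 88.5 (log2 fold change -0.90 ± 0.47, adjusted p = 0.33, limma). None of the 3 chain genes passed. The calls depended on the test: H2-Eb1 was lower at an adjusted p of 0.045 with edgeR and 0.037 with DESeq2, and H2-Aa at 0.024 with DESeq2.

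Ciita was at 23.4, 22.1 and 23.7 in the LAP* libraries, a narrow range that overlapped C1 dKO replicate 1 (log2 fold change -0.61, 95% interval -1.72 to 0.49, adjusted p = 0.60, limma). Cd74 was at 332.2, 473.8 and 547.2 and also overlapped C1 dKO (log2 fold change -0.68, 95% interval -1.56 to 0.20, adjusted p = 0.41, limma). H2-DMa was at 485.6, 419.4 and 502.5 (log2 fold change -0.12, 95% interval -0.38 to 0.15, adjusted p = 0.69, limma). The intervals for Ciita and Cd74 still allow a decrease of more than 1 on the log2 scale.

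Compared with C1 WT, 6 of 7 genes were called higher in the LAP* libraries, against 14.2% of all genes, 4 of them tested only through the C1 dKO and LAP* libraries. Ciita was at least 5.75-fold, H2-Aa at least 21.0-fold, H2-Ab1 at least 8.89-fold and H2-Eb1 at least 7.49-fold above the C1 WT floor. Cd74 was 7.37-fold higher (log2 fold change 2.95 ± 0.41, adjusted p = 4.0e-05, limma) and H2-DMa 2.29-fold higher (log2 fold change 1.19 ± 0.12, adjusted p = 2.0e-06, limma).

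Levels were next compared between genes per kilobase of annotated exon in C1 dKO and C1 LAP*, the 2 lines in which Ciita and the chain genes were read above the floor. The length is the union of all annotated exons of a gene, 3798 bases for H2-Aa, 1944 for H2-Eb1 and 9535 for Ciita. The order of genes and their ratios therefore depend on which exons are annotated. In C1 dKO, Cd74 was highest at 440.4 ± 146.2 normalized reads per kb (SD, n = 3), followed by H2-DMb1 at 247.7 ± 32.0 and H2-DMa at 147.6 ± 17.3. The chain genes followed at 43.0 ± 13.2 for H2-Aa, 39.5 ± 16.5 for H2-Eb1 and 28.1 ± 7.18 for H2-Ab1. The ranges over libraries overlapped, at 30.4 to 56.7 for H2-Aa, 25.6 to 57.7 for H2-Eb1 and 19.8 to 33.1 for H2-Ab1. Within each of the 3 C1 dKO libraries, however, H2-Ab1 was below both H2-Aa and H2-Eb1. In LAP* it was below H2-Aa in each library, but above H2-Eb1 in replicates 1 and 2. Ciita was lowest at 3.97 ± 1.55.

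Ratios were then taken within each library. H2-Ab1 was 0.664 ± 0.119 of H2-Aa in C1 dKO and 0.627 ± 0.143 in LAP*, with overlapping ranges. H2-Eb1 was 0.898 ± 0.103 of H2-Aa in C1 dKO and 0.690 ± 0.125 in LAP*, with ranges that did not overlap. H2-DMa was 3.57 ± 0.701 times H2-Aa in C1 dKO and 6.14 ± 0.760 times in LAP* (SD, n = 3 each), with ranges that did not overlap. Those of Ciita did not overlap either, at 0.0905 ± 0.0107 of H2-Aa in C1 dKO and 0.109 ± 0.0089 in LAP*. The invariant chain exceeded H2-Aa by 10.2 ± 0.760 times in C1 dKO and 11.99 ± 2.22 times in LAP*. These ratios were not tested.

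**Figure D3:**
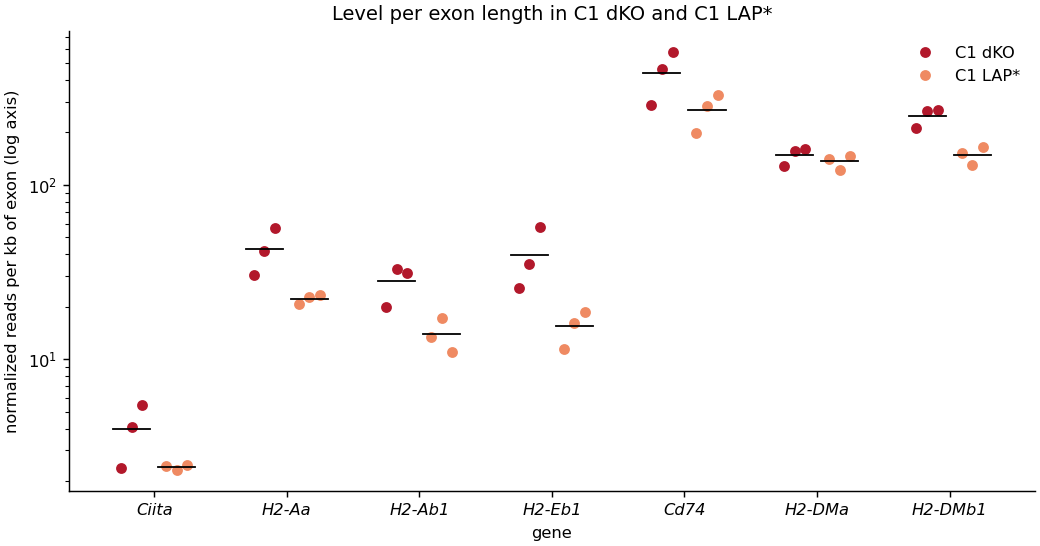
Normalized reads per kb of annotated exon (vertical log axis) for the 7 genes in the 3 C1 dKO and 3 C1 LAP* libraries, each a point, with the mean as a line. Cd74 is highest in C1 dKO at 440.4, the chain genes lie between 28.1 and 43.0, and Ciita is lowest at 3.97.

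Other genes of the class II region were read for comparison. Between H2-Oa and H2-Ea-ps (chromosome 17, 34092340 to 34344645) the annotation lists 22 genes, and 7 besides the 5 of the set were tested; this region was chosen after values were seen. In C1 dKO, 1 of the 7, H2-DMb2, was called higher and 3 were called lower, against 17.1% and 19.9% of all genes. The 3 were Psmb9 and Psmb8, subunits of the immunoproteasome, and Tap1, part of the peptide transporter for class I. H2-DMb2 had means of 23.6 in C1 WT and 74.4 in C1 dKO (log2 fold change 1.63 ± 0.34, adjusted p = 0.0013, limma), subject to the same uncertainty as its neighbour H2-DMb1. Tap1 had means of 1087 and 330.5 (log2 fold change -1.52, adjusted p = 0.0014, limma). These 3 genes lie between H2-DMb1 and H2-Ab1, as does Tap2, the partner of Tap1 in the transporter, which had means of 1387 and 1610.5 and did not pass (log2 fold change 0.24, adjusted p = 0.24, limma). In C2 dKO 2 of the 7, H2-Oa and Psmb8, were called higher and 0 lower, against 17.4% and 20.1% of all genes. The count lower was also 0 at an unadjusted p under 0.05, by edgeR and by DESeq2.

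**Figure D4:**
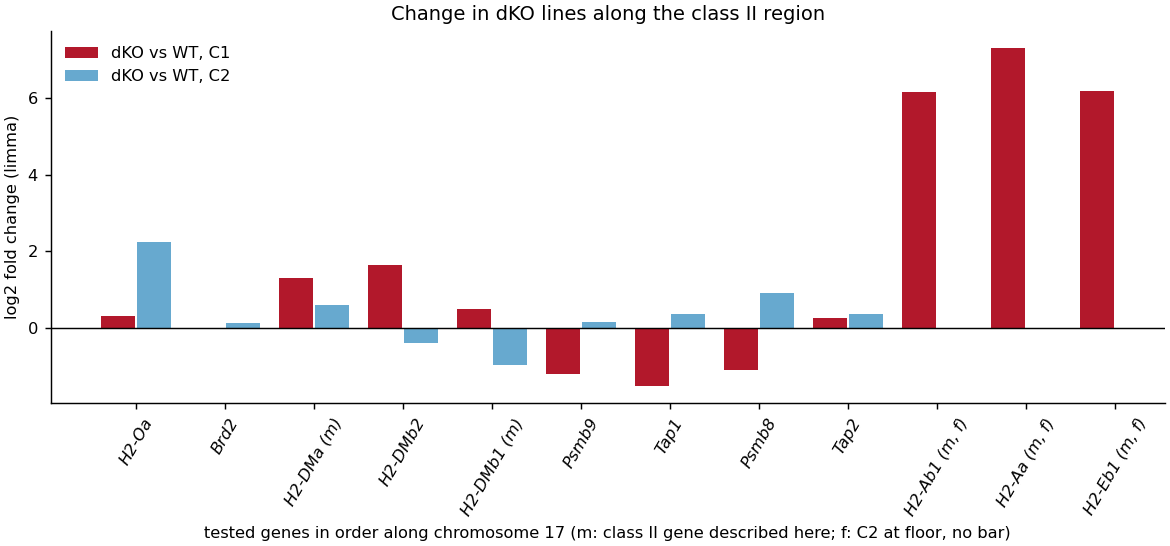
Log2 fold change (limma, vertical axis) of dKO against WT in C1 and in C2 for the 12 tested genes of the class II region, ordered along chromosome 17 and not drawn to genomic scale; (m) marks genes of the set and (f) those at the floor in C2, which have no C2 bar. In C1, H2-Ab1, H2-Aa and H2-Eb1 reach 6.16, 7.32 and 6.20, while Psmb9, Tap1 and Psmb8 lie below 0.

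H2-Oa encodes a chain of H2-DO, which restrains H2-DM. It was at 87.0, 92.9 and 61.1 normalized reads in C1 WT and at 86.1, 117.5 and 90.9 in C1 dKO, overlapping groups (adjusted p = 0.64, limma). In C2 it was at 13.9, 10.48 and 1.83 in WT and 29.3, 34.99 and 47.2 in dKO and was called higher (log2 fold change 2.25 ± 0.44, adjusted p = 7.5e-04, limma). Within 200 kb on either side of Ciita, 2 other genes were tested, Nubp1 and Dexi, and neither was called in either clone by limma, edgeR or DESeq2. At an unadjusted p under 0.05, 1 of them, Dexi, was higher in C1 dKO. H2-Ob, the other chain of H2-DO, did not pass the filter. Its means were 1.35 in C1 WT, 7.90 in C1 dKO, 2.04 in C2 WT and 8.42 in C2 dKO. H2-Eb2 had at most 2 reads in any library.

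Genes that act with or upstream of CIITA were taken as lists, and their counts are to be read against the 17.1% of all genes called higher and 19.9% called lower in C1 dKO, and the 17.4% and 20.1% in C2 dKO. Of 12 genes for the enhanceosome and CIITA partners, 0 were called higher and 3 lower in C1 dKO: Creb1, which binds the X2 box, at -0.74, and the acetyltransferase genes Kat2b and Ep300 at -0.42 and -0.34 on the log2 scale (limma). The median of the list was -0.04, against -0.01 over all genes. Of the same list 2 were higher at an unadjusted p under 0.05 by limma, 1 was called higher by edgeR and 0 by DESeq2. In C2 dKO, 2 rose and 1 fell. Rfx5, a subunit of the RFX complex, was higher in C2 dKO at a mean of 429.1 against 267.3 (log2 fold change 0.68, adjusted p = 1.5e-04, limma), in the line where the chain genes had almost no reads.

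Of 13 inputs to Ciita, 1 was called higher and 6 lower in C1 dKO. Jak2, a kinase of the interferon γ receptor, rose by 0.92, whereas the transcription factor genes Prdm1 and Irf8 had log2 fold changes of -2.38 and -1.58 (limma). Prdm1 encodes BLIMP-1, known as a repressor of Ciita, and had means of 15.8 in C1 WT and 2.37 in C1 dKO, at the low end of what was tested. In C2, where Ciita had almost no reads, Prdm1 had means of 0.64 in WT and 0 in dKO. In C2 dKO 3 inputs rose and 2 fell.

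Interferon γ–responsive genes moved opposite to Ciita in C1. Of 14 such genes 12 were tested, and 0 were called higher and 11 lower in C1 dKO, with a list median of -2.23 on the log2 scale. None was higher at an unadjusted p under 0.05 or by edgeR or DESeq2. The list shares Tap1, Psmb8 and Psmb9, called lower, and Tap2, not called, with the class II region above. For these genes the values are the same observations. The largest differences were in Nlrc5, the transactivator of class I genes, at -6.37 ± 0.57 (adjusted p = 3.6e-07, limma), Cxcl10 at -5.72, Gbp2 at -5.10 and Gbp5 at -4.35. Nlrc5 was at 544.6, 410.4 and 123.3 normalized reads in C1 WT and at 3.40, 1.05 and 4.41 in C1 dKO. C1 WT replicate 3 was the lowest WT library for these genes, while Ciita and the chain genes were at 0 in all 3 WT libraries. Of 4 class I genes, all 4 were called lower in C1 dKO, with B2m, the class I light chain, at a mean of 18815 in WT and 4182 in dKO (log2 fold change -2.13, adjusted p = 4.0e-08, limma). In C2 dKO 1 interferon γ–responsive gene was called higher and 3 lower, and none of the 4 class I genes passed the test, nor did any at an unadjusted p under 0.05, by edgeR or by DESeq2. Between WT lines, C2 was called lower for 11 of 12 interferon γ–responsive and 4 of 4 class I genes, against 21.3% of all genes. Between dKO lines, C2 was called lower for 2 of 12 and 1 of 4, against 24.9%, and higher for 1 of 12. Whether the levels of these genes had a part in those of Ciita was not tested.

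**Figure D5:**
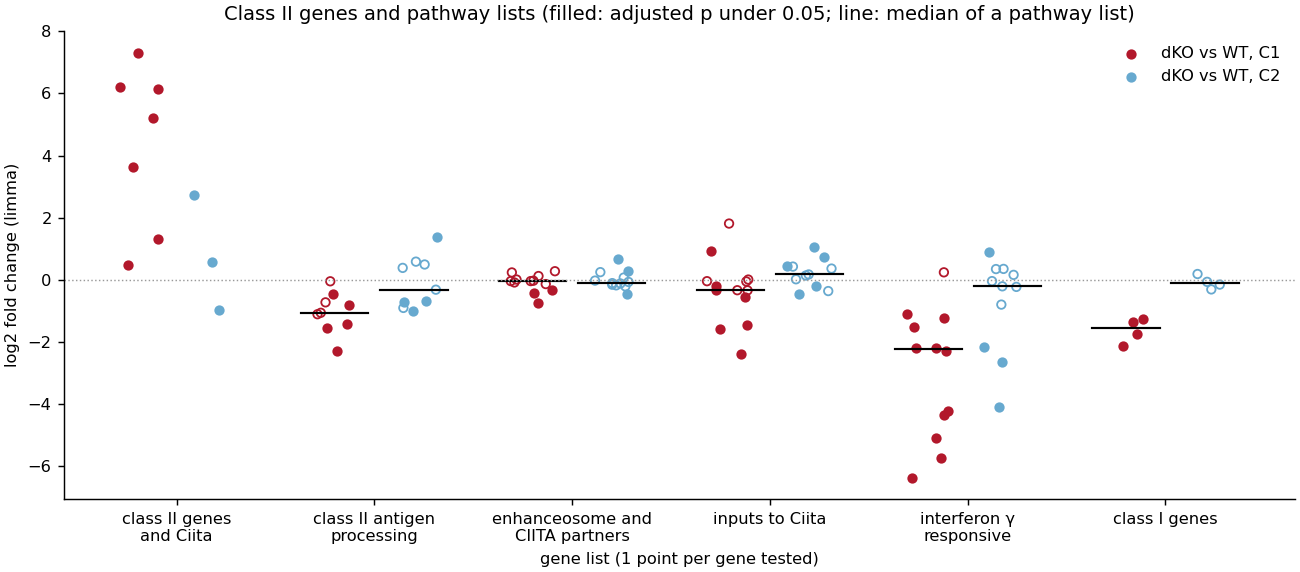
Log2 fold change (limma, vertical axis) of dKO against WT in C1 and C2 for each gene tested of the class II set and of 5 pathway lists. Filled points have an adjusted p under 0.05, lines are medians of the pathway lists, and genes at the floor in both groups are not drawn. In C1 the class II set lies above 0, between 0.48 and 7.32, and the interferon γ–responsive list has a median of -2.23.

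Some genes of antigen processing for class II fell in C1. Of 11 genes found, 9 were tested, and 0 were called higher and 5 lower in C1 dKO (list median -1.06), with 0 higher also at an unadjusted p under 0.05, by edgeR and by DESeq2. These included the endosomal proteases Ctsl at -2.28, Ctsb at -1.55, Ctss at -1.43 and Ctsd at -0.80 on the log2 scale (limma). Ctss, the protease that trims the invariant chain, was at 1297, 1419 and 982.3 normalized reads in C1 WT and at 308.1, 410.1 and 722.8 in C1 dKO. In C2 dKO 1 gene was called higher and 3 lower. Of the 50 genes tested in these 5 lists, 0 were called between LAP* and dKO by limma, edgeR or DESeq2, and at an unadjusted p under 0.05 4 were higher and 1 was lower. Calls in this comparison were few over all genes too, at 565 by limma, with 3.03% of all genes called lower. The count of 0 therefore does not set these lists apart from other genes. No share of all genes is given here for the unadjusted counts.

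Markers of cells that make class II were examined beside these results. Of 10 dendritic cell markers 3 were tested. Flt3 and Itgax were called higher in C1 dKO, and Clec10a was not called, with means of 97.1 in C1 WT and 79.99 in C1 dKO (adjusted p = 0.63, limma). Flt3, a cytokine receptor of progenitors and dendritic cells, was at 0 in C1 WT and at 34.0, 72.4 and 80.3 in C1 dKO, and Itgax, the integrin CD11c, was at 1.34, 3.61 and 4.08 and at 45.3, 82.9 and 109.4. The summed level of the 10 markers was 76.4 to 134.4 in C1 WT, 160.8 to 271.8 in C1 dKO, 177.8 to 280.9 in C1 LAP*, 15.9 to 47.6 in C2 WT and 345.1 to 483.3 in C2 dKO. In C1 dKO the defining genes Zbtb46, Clec9a, Cd209a and Siglech were at 0, and 6 of the 10 markers had at most 3 reads in every library. In C2 dKO all 3 markers that were tested, Flt3, Itgax and Clec10a, were called higher. C2 dKO had the highest sum, with Flt3 at 351.5, 260.5 and 299.3, and at most 2 reads of Ciita or any chain gene in a library.

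In C1, no B cell or macrophage marker that was tested was called higher in C1 dKO by limma, edgeR or DESeq2, or at an unadjusted p under 0.05, and no T cell marker passed the filter. All 8 B cell markers had at most 3 reads in every C1 dKO library. All 6 T cell markers were also at most 3 reads. The summed level of 10 macrophage markers was 5903 to 7903 in C1 WT, 2358 to 3181 in C1 dKO and 2384 to 2880 in C1 LAP*, and 5 of the 6 that were tested were called lower in C1 dKO. In C2 this sum was 248.0 to 512.1 in WT and 1100.4 to 1792 in dKO, where 2 of the 6, Fcgr1 and Adgre1, were called higher and 2 lower. The B cell gene Cd79b, the 1 marker of its list that was tested, fell from a mean of 100.9 in C1 WT to 0.757 in C1 dKO. The part of any of these cell types in the class II levels was not tested beyond these values.

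The genes whose pattern was most like each member are given as a description over the 15 libraries, which share their groups, with no p. Stxbp6 and Klra17 were among the 5 genes most like each of the 3 chain genes (Pearson's r of log2 values up to 0.983, for Stxbp6 with H2-Eb1). Stxbp6, a syntaxin-binding protein gene, averaged 0 in C1 WT, 22.2 in C1 dKO, 9.52 in C1 LAP*, and 0 in C2 WT and C2 dKO. Xlr3a was most like Ciita (r = 0.980) and Cntln, a centrosomal gene, most like Cd74 (r = 0.986). Tpcn1, an endolysosomal channel gene, was most like H2-DMa (r = 0.970).

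Among themselves, the chain genes and Ciita formed a tight group, with r between 0.942 for H2-Aa with Ciita and 0.990 for H2-Aa with H2-Eb1. Cd74 had r of 0.802 with H2-Aa and 0.814 with Ciita, and H2-DMa had 0.884 and 0.907. H2-DMb1 stood apart, with r from -0.03 with H2-DMa to 0.27 with H2-Eb1. Furin, a proprotein convertase gene, was among the 5 genes most like H2-DMb1 (r = 0.888). These values rest largely on the contrast of the C1 dKO and LAP* libraries with the rest.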

How the data were processed

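The authors aligned paired-end reads of stranded mRNA libraries to mm10 with STAR 2.5.3a, counted them with HTSeq 0.10.0 and deposited a signal table of read counts divided by DESeq2 1.26.0 size factors. Of its columns, 15 were matched to labelled samples, and 3 that were not matched were not used. The 5 rows that name no gene, 22.4 to 26.2% of reads, were left out. Whole reads were recovered from the value of 1 read (99.98% or more of values whole within 0.1) for counts, floors and count tests. The 12673 genes that reached 10 normalized reads in 3 or more libraries were tested with limma 3.58.1 (trended prior, R 4.3.3) on log2(normalized reads + 1) over all 15 libraries. A call is a Benjamini-Hochberg adjusted p under 0.05 over all genes. The pseudocount understates changes of low genes. edgeR 4.0.16 and DESeq2 1.42.0 on recovered reads, other pseudocounts, filters, scalings and left-out libraries were alternatives. On simulated counts for C1 dKO against WT, limma recovered 93% of 200 changed genes among 12377, of mixed fold sizes. Coordinates and exon lengths are from GENCODE vM21, promoters from RefSeq GRCm38.p6. The 7 genes and the lists were chosen with earlier results of these data known. All 7 are named, and from each list at most the 4 called genes with the largest absolute log2 fold change in a comparison, plus the 5 genes most like each member, some of which are not reported here. Other genes were named after their values were seen: overlapping or neighbouring genes, defining markers and genes at 0.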

Additional observations from a re-analysis of the deposited data

Results flagged for a closer look

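The dKO effect differed between the clones for 6 of the 7 genes in the interaction test (limma, adjusted over 12673 genes), all in the direction of a smaller rise or a fall in C2. The difference, C2 minus C1 on the log2 scale, was -8.04 for H2-Aa (adjusted p = 3.9e-07), -6.51 for H2-Eb1 (adjusted p = 4.5e-07), -6.18 for H2-Ab1 (adjusted p = 1.1e-06), -5.20 for Ciita (adjusted p = 7.9e-05), -1.45 for H2-DMb1 (adjusted p = 9.6e-06) and -0.72 for H2-DMa (adjusted p = 0.0060), by limma. The 4 genes with the largest values passed the filter on low values only through the C1 dKO and LAP* libraries, so their calls here are no independent support, and their fitted size depends on the pseudocount, since C1 WT held no read and the C2 groups at most 4 reads in a library. For H2-DMb1 the 2 effects had opposite signs and each passed its own test. With 1 dKO line per clone, the clone and the line cannot be told apart.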

How the results depend on the processing

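Of 769 values recomputed for single genes, 732 kept their direction and their side of the threshold, 8 no longer passed, 15 newly passed and 14 changed sign, none of the last past the threshold in either fit. For dKO against WT in C1, 7 of 7 genes were called in each alternative but 1: where the size of the log2 fold change also had to reach 1, 6 were. That requirement also left 1 gene for dKO against WT in C2, 1 for the WT lines, 5 for the dKO lines, 5 for the difference between clones (without H2-DMa) and 0 for LAP* against dKO, which follows from the rule itself. For LAP* against dKO, 4 genes were called with a pseudocount of 5, 4 with only the groups compared in the fit, 2 with edgeR and 3 with DESeq2, against 1 in the main test; the cause was not tested. With 1 library left out, the counts ran from 7 to 7 for dKO against WT in C1, 3 to 4 in C2, 6 to 7 for the difference between clones, 1 to 1 for LAP* against dKO, 6 to 7 for LAP* against WT, 2 to 3 for the WT lines and 7 to 7 for the dKO lines. The calls gained were H2-Aa, without C2 WT replicate 2 (adjusted p = 0.038 in C2 and 0.0092 between WT lines, limma), Cd74 in the difference without C2 WT replicate 1 (adjusted p = 0.039) and H2-DMb1 for LAP* against WT without C1 WT replicate 3 (adjusted p = 0.048).

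Replicate numbers did not pair the libraries: 5 of 30 pairs with the same number correlated above 0.1. The replicate block gave 7, 3, 6, 1, 6, 2 and 7 genes in the 7 comparisons, in the order of the preceding list, and changed no call count. H2-Ab1 had 1 read in each C2 group and Ciita had 2, so their fitted log2 values in C2 are not measured effects. H2-Ab1 in C2 moved to 0.28 with quantile normalization, 0.0514 with edgeR, 0.0755 with DESeq2, 0.33 without C2 WT replicate 2 and 0.14 without C2 dKO replicate 1 or 3, over a range of -0.3452 to 0.3261 with 1 library left out. Ciita in C2 moved to -0.26 without C2 WT replicate 1 or 3 and -0.54 without C2 dKO replicate 3, over -0.5441 to 0.5518. The Cd74 difference, where C2 WT held 4 reads, moved from -0.91 to 0.42 with a pseudocount of 0.1 and to -2.04 with a pseudocount of 5, where it passed (adjusted p = 0.0019). H2-DMa between WT lines moved to 0.0471 with quantile normalization and ran from -0.0987 to 0.0518 with 1 library left out.

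Over all genes, the calls for LAP* against dKO fell from 565 to 310, 266 and 351 without C1 dKO replicate 1, 2 and 3, and to 294 and 274 without LAP* replicate 2 and 3, and to 223 with the fold limit. The fold limit reduced the other comparisons to 1749 of 4686 (C1), 1441 of 4760 (C2), 1661 of 3720 (difference), 1605 of 4118 (LAP* against WT), 2081 of 5192 (WT lines) and 2035 of 6045 (dKO lines).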
